A study of Homo sapiens with 18 samples.

Results

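The genes described here are the PGC-1 coactivator family and transcription factors with which it drives mitochondrial biogenesis: PPARGC1A, PPARGC1B, PPRC1, NRF1, GABPA and ESRRA. They were taken by gene symbol, and all 6 were found among the 26485 genes of the count table. All 6 were also among the 12832 genes tested, those above 1 CPM (counts per 1000000 counts of the library) in at least 3 libraries. PPARGC1A exceeded 1 CPM in 9 of 18 libraries, all of them heated, so it entered the test through the groups in which it was high.

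RNA was sequenced from SW620, an established human colon cancer line, to ask how silencing of Lonp1, a mitochondrial protease, changes the response to heat shock. Cells received scramble siRNA or siRNA against Lonp1 (siLonp1). The methods of the study name more than 1 siRNA against Lonp1, and which the sequenced cells received is not stated. Effects of silencing below are differences between these siRNA arms, and effects of the siRNA other than on LONP1 were not tested. Each arm had a group left at 37 °C (Ctrl), a group heated to 42 °C for 1 h (HS) and a group that was given 1 h at 37 °C after the same heating (HS+REC). Every group had 3 libraries, 18 in all. Libraries held 30815860 to 47279297 counts, the lowest being HS scramble replicate 3. All values below are CPM scaled by TMM factors, given as mean ± SD (n = 3), and FDR is the Benjamini-Hochberg adjusted p of edgeR's quasi-likelihood test over all genes tested.

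LONP1 was first examined in every library. In Ctrl cells it was at 223, 225 and 215 CPM with scramble and at 19.4, 22.5 and 19.5 CPM with siLonp1. In HS cells the values were 219, 227 and 197 CPM with scramble and 11.8, 11.6 and 11.8 CPM with siLonp1. In HS+REC cells they were 225, 197 and 233 CPM with scramble and 27.1, 25.6 and 28.9 CPM with siLonp1. All 9 libraries labelled siLonp1 lay far below all 9 scramble libraries, with log2 fold changes of -3.43, -4.19 and -3.01 in Ctrl, HS and HS+REC. The residual LONP1 level differed between the siLonp1 groups, so the depth of silencing was not the same in the 3 conditions.

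The heat treatment was checked with the chaperone gene HSPA1B and the co-chaperone gene DNAJB1. HSPA1B was at 25.7 to 27.2 CPM in the 6 Ctrl libraries and at 2518 to 4089 CPM in the 12 heated libraries. HSPA1B has a near-identical copy, HSPA1A, and how reads shared by both were counted is not stated, so its level is uncertain. DNAJB1 was at 228 to 290 CPM in Ctrl libraries and at 4836 to 7543 CPM in heated ones. Within HS+REC, scramble replicate 1 (HSPA1B at 3091 CPM, DNAJB1 at 5220 CPM) and siLonp1 replicate 3 (2518 and 4836 CPM) were the lowest of their groups for both genes. Each of the 6 genes was also tested without this pair, and results whose call changed are given both ways. The pathway lists below were not tested without it.

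Of 10 markers of colon epithelium, 7 had a mean above 1 CPM; KRT8 was the most abundant at 5326 CPM, and the list summed to 7905 to 10870 CPM per library. CDX1 had no count in any library, and KRT20 and LGALS4 had means under 1 CPM. In Ctrl cells, CDX2 was at 29.5 ± 0.938 CPM with scramble and 15.8 ± 1.11 CPM with siLonp1, and CDH17 at 10.3 ± 0.699 and 1.18 ± 0.174 CPM. Other markers lay higher with siLonp1 in Ctrl, CDH1 at 103 ± 8.27 and 158 ± 7.09 CPM and KRT8 at 4925 ± 152 and 5503 ± 233 CPM, so the list did not move as one. Of 5 leukocyte markers, 1 had a mean above 1 CPM, LYZ at 5.87 CPM (in Ctrl, 8.76 ± 0.170 CPM with scramble and 3.06 ± 0.428 CPM with siLonp1), and CD14 with siLonp1 was at 0.380 ± 0.116 CPM in Ctrl and 1.52 ± 0.240 CPM in HS, while PTPRC and CD3E had at most 3 counts in a library; the list summed to 2.89 to 10.4 CPM. Of 5 fibroblast and endothelial markers, 2 exceeded a mean of 1 CPM, and the list summed to 9.95 to 37.99 CPM. Most of it was COL1A1, whose scramble means were 9.21 ± 1.05 CPM in Ctrl and 30.2 ± 0.595 CPM in HS+REC. The other gene, PDGFRB, had scramble means of 1.17, 0.98 and 1.13 CPM in Ctrl, HS and HS+REC. With siLonp1 the PDGFRB means were higher, at 2.63, 2.015 and 2.456 CPM. COL1A2 stayed at 0 to 2 counts in every library. The part of these markers in the results below was not tested. In bulk RNA of a single line, fewer cells expressing a marker and less of its RNA per cell cannot be told apart.

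PGC-1 proteins do not bind DNA themselves. They are recruited by nuclear receptors such as ERR alpha, the product of ESRRA, and by the nuclear respiratory factors, and these factors activate nuclear genes for respiratory chain subunits and for the replication and transcription of mitochondrial DNA. NRF1 here is nuclear respiratory factor 1, not NFE2L1, which shares that short name. GABPA encodes the DNA-binding subunit of nuclear respiratory factor 2, which is not the antioxidant factor NFE2L2, also called NRF2.

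Per kilobase of the MANE Select transcript, a scale on which levels of different genes can be compared, the members in Ctrl scramble were ordered PPRC1 (34.2 ± 0.514 CPM per kb), ESRRA (21.6 ± 1.21), GABPA (8.73 ± 0.331), NRF1 (8.60 ± 0.425), PPARGC1B (0.746 ± 0.0540) and PPARGC1A (0.0788 ± 0.0109). GABPA and NRF1 did not differ beyond their spread; the other neighbours did. Other genes overlap 11.6% of the GABPA and 12.5% of the ESRRA transcript on the opposite strand, so these levels may include reads from them. The coactivator with the highest level was therefore PPRC1, and PPARGC1A, the best known of the family, was near the limit of counting.

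**Figure D1:**
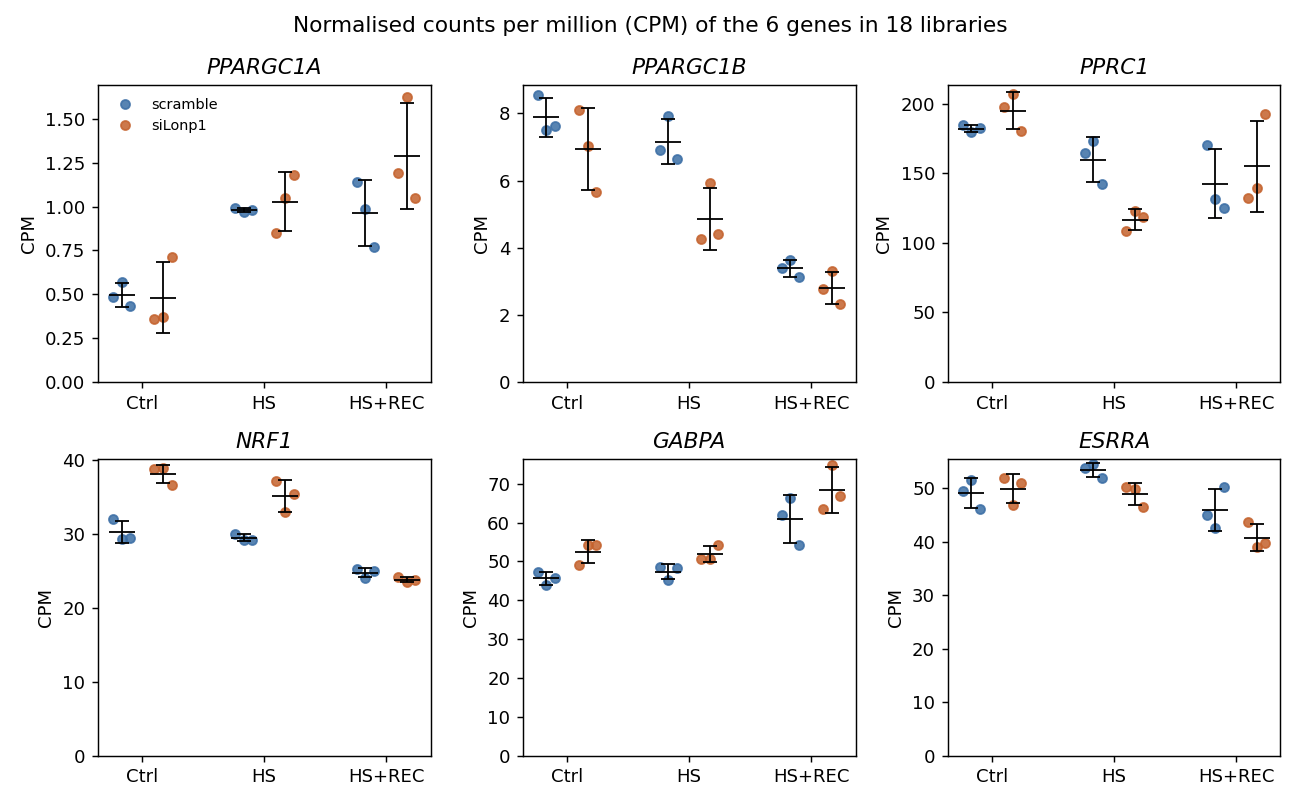
CPM (vertical axes, each from 0) of the 6 genes in Ctrl, HS and HS+REC for scramble (blue) and siLonp1 (orange); points are single libraries and black marks show mean ± SD of 3. PPARGC1A lies higher in heated groups, PPARGC1B and NRF1 lie lowest in HS+REC, and GABPA lies highest there.

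PPARGC1A (chr4:23755041-23904089, minus strand, GRCh38) encodes PGC-1 alpha, the inducible coactivator of the family. It had 20, 27 and 18 counts in Ctrl scramble and 14, 15 and 28 in Ctrl siLonp1. It had 44, 44 and 31 counts in HS scramble and 33, 40 and 47 in HS siLonp1. It had 49, 40 and 36 counts in HS+REC scramble and 50, 64 and 41 in HS+REC siLonp1. All 12 heated libraries exceeded all 6 Ctrl libraries on the CPM scale, the highest Ctrl library being at 0.715 CPM and the lowest heated one at 0.768 CPM. The library with 14 counts has an exact Poisson 95% interval of 7.65 to 23.5 counts, which covers counting error only.

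In HS, PPARGC1A rose by a log2 fold change of 0.97 (SE 0.26, FDR 0.00493) with scramble and 1.10 (SE 0.27, FDR 0.00173) with siLonp1. In HS+REC it rose by 0.94 (SE 0.26, FDR 0.0047) with scramble and 1.42 (SE 0.25, FDR 5.76e-05) with siLonp1. PPARGC1A entered the test only through heated libraries, so these FDRs are those of a gene selected for being high when heated. The same heat calls were made with no filter on low counts. HS+REC and HS overlapped in both arms, and scramble and siLonp1 overlapped in all 3 conditions. The difference between arms in the HS+REC response was 0.48 (SE 0.37, FDR 0.629), which did not pass the test, and it lay between 0.28 and 0.87 (lowest FDR 0.31) with any library left out. Without the pair of HS+REC libraries named above, the siLonp1 effect in HS+REC was 0.69 (FDR 0.0368), against 0.42 (FDR 0.109) with all libraries. That pair was chosen after the values had been seen. With any single library left out the effect lay between 0.22 and 0.56 and the FDR between 0.0573 and 0.455, so no single removal passed.

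PPARGC1B (chr5:149730298-149855022, plus strand) encodes PGC-1 beta. In Ctrl it was at 8.54, 7.49 and 7.62 CPM with scramble and 8.09, 7.04 and 5.67 CPM with siLonp1. In HS it was at 6.92, 7.91 and 6.64 CPM with scramble and 4.25, 5.92 and 4.41 CPM with siLonp1. In HS+REC it was at 3.39, 3.63 and 3.13 CPM with scramble and 2.76, 3.31 and 2.33 CPM with siLonp1. The 6 HS+REC libraries were the lowest of the 18. In HS, the siLonp1 libraries lay below all scramble libraries, but overlapped Ctrl siLonp1.

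PPARGC1B fell in HS+REC, with log2 fold changes of -1.22 (SE 0.14, FDR 1.95e-07) with scramble and -1.31 (SE 0.15, FDR 1e-07) with siLonp1. Most of that fall lay between HS and HS+REC, at -1.09 (FDR 3.02e-06) and -0.79 (FDR 0.000274). In HS it did not pass the test with scramble (-0.13, FDR 0.461) and fell with siLonp1 (-0.52, FDR 0.00419). Silencing lowered it within HS by -0.57 (SE 0.14, FDR 0.00149). The test of the difference between the arms' HS responses gave -0.38 (SE 0.19, FDR 0.349), so they are not shown to differ.

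PPRC1 (chr10:102132994-102150333, plus strand) encodes the PGC-1-related coactivator PRC, known as an early responder to growth signals. Its RefSeq promoter window is shown because the gene fell in HS with siLonp1. A match to GAANNTTC, the core of the heat shock element, is in capitals, and binding there was not tested.
PPRC1 promoter, chr10:102132790-102133089, plus strand: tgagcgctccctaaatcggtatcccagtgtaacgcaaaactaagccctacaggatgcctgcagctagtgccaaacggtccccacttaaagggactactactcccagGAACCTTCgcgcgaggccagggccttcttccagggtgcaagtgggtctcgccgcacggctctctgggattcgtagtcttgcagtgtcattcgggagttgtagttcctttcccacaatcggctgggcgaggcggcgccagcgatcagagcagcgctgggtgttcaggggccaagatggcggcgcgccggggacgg
The match starts at base -144 from the start site. On either strand GAANNTTC occurs in 6.77% of 35116 promoters of that length. The match is a description of letters in the window.

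In Ctrl, PPRC1 was at 185, 180 and 182 CPM with scramble and 198, 207 and 181 CPM with siLonp1. In HS it was at 165, 173 and 142 CPM with scramble and 109, 123 and 118 CPM with siLonp1. In HS+REC it was at 171, 132 and 125 CPM with scramble and 133, 140 and 193 CPM with siLonp1. The 3 HS siLonp1 libraries were the lowest of all 18. HS+REC scramble replicate 1 and HS+REC siLonp1 replicate 3 stood above their replicates, and these were also the lowest libraries of their groups for HSPA1B and DNAJB1.

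In HS, PPRC1 fell with siLonp1 by a log2 fold change of -0.74 (SE 0.11, FDR 1.15e-05), while with scramble the libraries separated but the test was not passed (-0.19, FDR 0.208; FDR 0.0398 without the named pair of HS+REC libraries). Silencing lowered PPRC1 within HS by -0.46 (SE 0.11, FDR 0.00181). The difference between the arms' HS responses was -0.55 (SE 0.16) and missed the threshold at FDR 0.0758. With any library left out the value lay between -0.64 and -0.49 and the FDR between 0.021 and 0.199. The FDR was 0.00193 with only the groups compared in the fit and 0.00263 without the named pair of HS+REC libraries. Of single libraries, leaving out HS scramble replicate 3 (value -0.64, FDR 0.0307), HS+REC scramble replicate 1 (FDR 0.0353), HS+REC scramble replicate 3 (FDR 0.0493) or HS+REC siLonp1 replicate 3 (FDR 0.021) brought it past the threshold. With no filter on low counts it was 0.000132, in a fit whose prior degrees of freedom rose from 10.9 to 172, which draws the variance of each gene closer to the trend. HS+REC libraries are not part of the HS contrasts of this paragraph. Without them the difference stayed at -0.55 and the HS change with scramble at -0.19. Only the FDRs moved, so leaving out HS+REC libraries adds no support to either value.

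In HS+REC, PPRC1 was lower than in Ctrl by -0.35 (FDR 0.0145) with scramble and -0.33 (FDR 0.0173) with siLonp1, where the libraries overlapped Ctrl. HS+REC scramble replicate 1 and HS+REC siLonp1 replicate 3 held the most PPRC1 of their groups, so leaving either out had to enlarge the fall. The values were then -0.50 (FDR 0.000823) and -0.52 (FDR 0.00024), which adds no support to it. The first call was lost without HS+REC scramble replicate 2 (FDR 0.0723) or replicate 3 (FDR 0.0785). The second was lost without Ctrl siLonp1 replicate 2 (FDR 0.0726), HS+REC siLonp1 replicate 1 (-0.23) or replicate 2 (FDR 0.093), and in DESeq2 (adjusted p 0.0519). Between HS and HS+REC it rose with siLonp1 by 0.41 (FDR 0.00733), a call lost without HS+REC siLonp1 replicate 3 (0.22, FDR 0.109). With scramble the change between HS and HS+REC was -0.17 (FDR 0.315), and it was -0.32 (FDR 0.039) without HS+REC scramble replicate 1 and -0.32 (FDR 0.00458) without the named pair. The siLonp1 effect on PPRC1 in HS+REC was 0.12 (FDR 0.389), 0.27 (FDR 0.0487) without HS+REC scramble replicate 1, and -0.07 (FDR 0.615) without HS+REC siLonp1 replicate 3. Leaving out these same highest libraries also set the direction in which the HS to HS+REC and silencing values shifted.

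NRF1 (chr7:129611720-129757082, plus strand) was at 32.0, 29.3 and 29.5 CPM with scramble and 38.7, 38.9 and 36.6 CPM with siLonp1 in Ctrl cells. In HS it was at 30.0, 29.2 and 29.1 CPM with scramble and 37.2, 32.9 and 35.4 CPM with siLonp1. In HS+REC it was at 25.3, 24.0 and 24.9 CPM with scramble and 24.2, 23.5 and 23.7 CPM with siLonp1. The siLonp1 libraries thus lay above scramble in Ctrl and in HS, and both arms met at a lower level in HS+REC.

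Silencing raised NRF1 by a log2 fold change of 0.33 (SE 0.06, FDR 9.28e-05) in Ctrl and 0.26 (SE 0.06, FDR 0.00117) in HS, and the arms overlapped in HS+REC (-0.06, FDR 0.47). HS did not change it past the threshold in either arm, except with siLonp1 when library size was the only scaling (-0.16, FDR 0.0279). HS+REC lowered it by -0.29 (SE 0.06, FDR 0.000455) with scramble and -0.68 (SE 0.06, FDR 2.62e-09) with siLonp1. The responses to HS+REC differed between arms by -0.39 (SE 0.09, FDR 0.0204). That call was lost without Ctrl scramble replicate 2 (FDR 0.0693) or 3 (FDR 0.0726), Ctrl siLonp1 replicate 1 (FDR 0.0626) or 2 (FDR 0.064), or HS+REC scramble replicate 1 (FDR 0.0633), and without the named pair of HS+REC libraries (FDR 0.0773), while the value stayed between -0.43 and -0.36 with any library left out.

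GABPA (chr21:25734570-25772460, plus strand) was the member that rose in HS+REC with both siRNAs from an already readily counted level. Its RefSeq promoter window is shown with a match to CCGGAAG, the core bound by ETS factors, the family of GABPA itself, in capitals on the opposite strand.
GABPA promoter, chr21:25734722-25735021, plus strand: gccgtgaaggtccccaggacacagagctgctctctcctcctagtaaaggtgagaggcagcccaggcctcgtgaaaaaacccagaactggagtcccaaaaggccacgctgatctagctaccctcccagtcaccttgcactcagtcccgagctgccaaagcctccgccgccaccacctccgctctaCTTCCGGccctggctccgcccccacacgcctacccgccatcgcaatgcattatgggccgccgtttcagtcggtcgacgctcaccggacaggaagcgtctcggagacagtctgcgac
The match starts at base -66 from the start site, and CCGGAAG occurs on either strand in 10.3% of the 35116 promoters. Of the 5226 bases of the GABPA transcript, 607 are also covered on the opposite strand by ATP5PF (ATP5J in the count table), and use of strand in counting is not stated, so reads from those bases cannot be told apart.

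In Ctrl, GABPA was at 47.3, 43.8 and 45.8 CPM with scramble and 49.1, 54.2 and 54.2 CPM with siLonp1. In HS it was at 48.6, 45.2 and 48.3 CPM with scramble and 50.6, 50.7 and 54.2 CPM with siLonp1. In HS+REC it was at 62.0, 66.3 and 54.2 CPM with scramble and 63.5, 74.9 and 66.8 CPM with siLonp1. HS+REC libraries lay above the Ctrl and HS libraries of their own arm.

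The log2 fold changes of GABPA in HS+REC were 0.42 (SE 0.07, FDR 7.17e-05) with scramble and 0.38 (SE 0.07, FDR 0.000135) with siLonp1, and HS alone changed it past the threshold in neither arm. Silencing raised it in Ctrl by 0.20 (FDR 0.0271). That call was lost with library size as the only scaling (0.13, FDR 0.167) and without Ctrl scramble replicate 2 (FDR 0.104) or 3 (FDR 0.0603) or Ctrl siLonp1 replicate 2 (FDR 0.0922) or 3 (FDR 0.09). In HS+REC the siLonp1 effect was 0.17 (FDR 0.0552), just outside the threshold. It passed with RLE factors (FDR 0.0433), DESeq2 (adjusted p 0.0392) and a stricter filter (FDR 0.0436), and without HS scramble replicate 3 (FDR 0.0461), HS+REC scramble replicate 2 (FDR 0.0149) or HS+REC siLonp1 replicate 1 (FDR 0.0211). With any library left out the value lay between 0.09 and 0.24 and the FDR reached 0.304, the weakest being without HS+REC scramble replicate 3.

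ESRRA (chr11:64305497-64316743, plus strand) encodes ERR alpha. Its RefSeq promoter window is shown with a match to GCATGCGC, a core of the site bound by NRF1, in capitals.
ESRRA promoter, chr11:64305274-64305573, plus strand: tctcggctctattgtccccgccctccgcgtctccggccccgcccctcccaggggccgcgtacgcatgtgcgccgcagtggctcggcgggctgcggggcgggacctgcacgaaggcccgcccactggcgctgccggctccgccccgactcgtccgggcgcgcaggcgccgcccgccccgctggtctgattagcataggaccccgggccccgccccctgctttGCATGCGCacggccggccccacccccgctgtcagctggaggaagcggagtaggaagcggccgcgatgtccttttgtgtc
The match starts at base -29 from the start site, and GCATGCGC occurs on either strand in 3.05% of the 35116 promoters. No match to AAGGTCA, a site bound by ERR alpha, or to TGACGTCA, the cyclic AMP response element, was found in any of the 6 windows of 5 matched members. The windows of PPARGC1A and PPARGC1B lie at other start sites than their MANE Select transcripts and are not printed; of these, only the PPARGC1A window at chr4:24472856-24473155 held a match, to CACGTG, which 7.26% of promoters hold. TRMT112 covers 284 of the 2274 bases of the ESRRA transcript on the opposite strand.

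In Ctrl, ESRRA was at 49.6, 51.6 and 46.2 CPM with scramble and 52.0, 46.8 and 51.0 CPM with siLonp1. In HS it was at 53.7, 54.5 and 51.9 CPM with scramble and 50.3, 49.9 and 46.6 CPM with siLonp1. In HS+REC it was at 45.0, 42.6 and 50.3 CPM with scramble and 43.8, 38.9 and 39.7 CPM with siLonp1. The ratio of its highest to its lowest library was the smallest of the members, and the HS+REC siLonp1 libraries were below all Ctrl siLonp1 libraries.

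ESRRA fell in HS+REC with siLonp1 by a log2 fold change of -0.29 (SE 0.07, FDR 0.00117), and with scramble the change was -0.10 (FDR 0.277). With library size as the only scaling the latter was -0.18 (FDR 0.0327), and the siLonp1 effect in HS was -0.22 (FDR 0.00735) in place of -0.13 (FDR 0.122). From HS to HS+REC it fell by -0.22 (FDR 0.0209) with scramble and -0.26 (FDR 0.00516) with siLonp1. The scramble call was lost with only the groups compared in the fit (FDR 0.0608), without the named pair of HS+REC libraries (FDR 0.0691), and without HS scramble replicate 1 (FDR 0.062) or 2 (FDR 0.075) or HS+REC scramble replicate 1 (FDR 0.0649) or 2 (FDR 0.12). The siLonp1 effect in HS+REC was -0.17 (FDR 0.0406) with overlapping libraries. It was lost with RLE factors (FDR 0.051), no filter (FDR 0.0532), only the groups compared in the fit (FDR 0.14) or the named pair left out (FDR 0.126), and without HS+REC scramble replicate 1 (FDR 0.0542) or 3 (FDR 0.245) or HS+REC siLonp1 replicate 2 (FDR 0.134) or 3 (FDR 0.114).

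**Figure D2:**
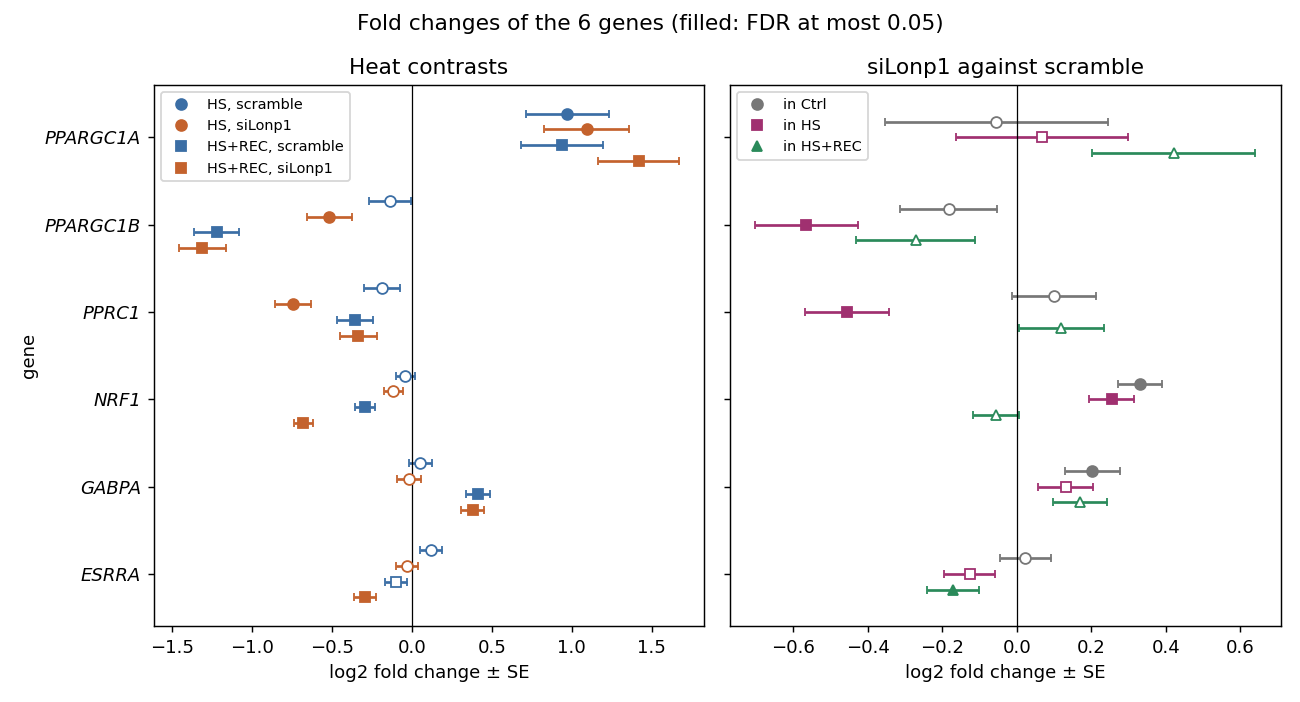
Log2 fold change ± SE (horizontal axes) of each gene (vertical axis), for the heat contrasts against Ctrl (left) and for siLonp1 against scramble (right); filled symbols have an FDR of at most 0.05. PPARGC1B lies at -1.22 and -1.31 in HS+REC, and PPARGC1A, which entered the test through heated groups, lies to the right of 0 in the 4 heat contrasts.

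Counted over the members, HS with scramble changed 1 of 6 past the threshold (PPARGC1A, higher), against 36.0% of all genes tested. HS with siLonp1 changed 3 (1 higher, 2 lower), against 42.2%. HS+REC changed 5 with scramble (2 higher, 3 lower), against 42.3%, and 6 with siLonp1 (2 higher, 4 lower), against 51.2%. From HS to HS+REC, 4 changed with scramble (1 higher, 3 lower) and 5 with siLonp1 (2 higher, 3 lower), against 26.8% and 31.9%. Among these contrasts HS with scramble had the fewest members called.

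Silencing changed 2 members in Ctrl (both higher, NRF1 and GABPA), 3 in HS (NRF1 higher, PPARGC1B and PPRC1 lower) and 1 in HS+REC (ESRRA, lower). All genes tested were called at 49.2%, 54.8% and 54.1% in these contrasts. The difference between arms passed for 0 members in HS by edgeR, with 1 of 6 at an unadjusted p under 0.05 and 0 of 6 by DESeq2, and for 1 in HS+REC (NRF1), against 1.87% and 1.58% of all genes. Contrasts within an arm share their Ctrl libraries and contrasts within a condition share libraries with the heat contrasts, so their counts are not independent. With 6 members, a count reads only loosely against a share of all genes, and PPARGC1A entered the test through the heated groups.

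Each member was also set against the 12382 other genes with a mean of at least 1 CPM, by Pearson r of log2 CPM over the 18 libraries, which share the 6 conditions. NRF1 was most like TRAF4 (r = 0.972), PPP2R2D (0.967) and TBC1D10A (0.960), and GABPA was most like AP3M1 (0.965), AFTPH (0.960) and PPP4R3B (0.958). PPARGC1B was most like LRP8 (0.953), PITRM1 (0.946) and ZNF710 (0.942), and PPRC1 was most like SETD1A (0.933), MNT (0.930) and PCNXL3 (0.908). PPARGC1A was most like AHR (0.930), ZNF75D (0.924) and TCF12 (0.920), and ESRRA was most like ARHGEF16 (0.905), ATRIP (0.887) and NUP93 (0.887). Likeness here describes profiles across groups and says nothing of shared control.

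The other genes of the pathway were followed in 4 lists of 75 genes, of which 69 were tested. MEF2C, TWIST1, ESRRB, ESRRG, THRB and CPT1B were too low. Over all lists, 20 genes rose and 9 fell in HS with scramble, 42.0% called, and 21 rose and 15 fell with siLonp1, 52.2% called. In HS+REC, 17 rose and 5 fell with scramble (31.9%), and 19 rose and 15 fell with siLonp1 (49.3%). In silenced Ctrl, HS and HS+REC cells 44.9%, 55.1% and 52.2% were called. All genes tested were called at 36.0% and 42.2% in HS, at 42.3% and 51.2% in HS+REC, and at 49.2%, 54.8% and 54.1% for silencing. The median over all 4 lists pooled lay between -0.02 and 0.05 in these contrasts, and single lists departed from it.

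Among 15 tested upstream activators, which include the AMP-activated kinase that phosphorylates PGC-1 alpha, 5 rose and 1 fell in HS with scramble (40% called, all genes 36.0%; median 0.07, all genes -0.01). PRKAB2, a regulatory subunit of that kinase, rose by 0.57 (FDR 9.26e-07) in HS with scramble and by 1.07 (FDR 2.51e-11) with siLonp1, and these responses differed between arms by 0.50 (SE 0.10, FDR 0.00935). The arms differed at the start: in Ctrl silencing lowered PRKAB2 by -0.46 (FDR 1.73e-05; 38.1 CPM with scramble, 27.7 with siLonp1), while in HS the siLonp1 effect was 0.04 (FDR 0.622; 56.3 and 58.0 CPM). PRKAG2, another regulatory subunit, fell in HS by -0.39 with scramble and by -0.70 with siLonp1. Silencing raised ATF2, a factor that can activate PPARGC1A, by 0.55, 0.63 and 0.88 under Ctrl, HS and HS+REC (FDR 3.99e-06, 4.15e-07 and 2.87e-09). It lowered STK11, a kinase that activates the AMP-activated kinase, by -0.39, -0.61 and -0.36, and PRKAA2, a catalytic subunit of the latter, by -0.38, -0.43 and -0.43.

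Among 9 tested negative regulators, 4 rose and 1 fell in HS with scramble (55.6% called, all genes 36.0%, median 0.20). Silencing in HS raised 2 and lowered 6 (88.9% called, median -0.32). All genes were called at 54.8% there, 28.1% higher and 26.7% lower, with a median of 0.00. In Ctrl silencing lowered 4 and raised 0 (44.4% called, all genes 49.2%, median -0.14), and in HS+REC it raised 1 and lowered 4 (55.6%, all genes 54.1%, median -0.14). MYBBP1A, a repressor that binds PGC-1 alpha, fell in HS by -0.25 (FDR 0.0299) with scramble and -0.78 (FDR 1.82e-07) with siLonp1, and its HS response differed between arms by -0.53 (SE 0.13, FDR 0.0295). The HS response of ZNF746, a repressor of PPARGC1A, differed between arms by -0.48 (SE 0.11, FDR 0.0184). Over all genes, calls of this difference ranged from 98 to 526 with a library left out, against 240 with all libraries. FBXW7, a ubiquitin ligase component, rose in HS by 0.66 and 0.67 and fell again from HS to HS+REC by -0.60 and -0.62 with scramble and siLonp1. KAT2A, an acetyltransferase acting on PGC-1 alpha, rose in HS+REC by 0.69 and 0.66.

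Of 17 tested partner factors and cofactors, 7 rose and 1 fell in HS with scramble (47.1% called, all genes 36.0%, median 0.15). FOXO1 rose in HS by 0.77 (FDR 1.83e-07) and 0.72 (FDR 2.93e-07). In HS+REC, CREBBP rose by 0.60 with scramble and 0.55 with siLonp1, and HCFC1 fell by -0.57 and -0.81. PPARG rose in HS+REC by 0.45 (FDR 2.12e-06) with scramble and 0.74 (FDR 5.86e-10) with siLonp1. Silencing lowered HNF4A by -0.42, -0.55 and -0.58 in Ctrl, HS and HS+REC.

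Of 28 tested target genes, 4 rose and 6 fell in HS with scramble (35.7% called, all genes 36.0%, median -0.08), and 7 rose and 3 fell in HS+REC with siLonp1 (35.7%, all genes 51.2%). VEGFA, an angiogenic factor, had scramble means of 33.5, 57.1 and 93.2 CPM under Ctrl, HS and HS+REC, and rose in HS+REC by 1.48 (FDR 7.66e-15) and 1.69 (FDR 4.84e-16). PDK4, an inhibitor of pyruvate dehydrogenase counted at low depth, rose in HS+REC by 2.52 (SE 0.26, FDR 3.37e-08) and 2.63 (SE 0.35, FDR 9.26e-07). It exceeded 1 CPM in 8 libraries, all heated, so like PPARGC1A it entered the test through groups in which it was high, and its Ctrl means were 0.402 CPM with scramble and 0.194 CPM with siLonp1. POLG2, an accessory subunit of mitochondrial DNA polymerase, rose in HS by 0.82 (FDR 2.31e-08) with scramble and 0.89 (FDR 6.71e-09) with siLonp1. Silencing raised IDH3A, a subunit of a citric acid cycle enzyme, by 0.62, 0.64 and 0.57 in Ctrl, HS and HS+REC.

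**Figure D3:**
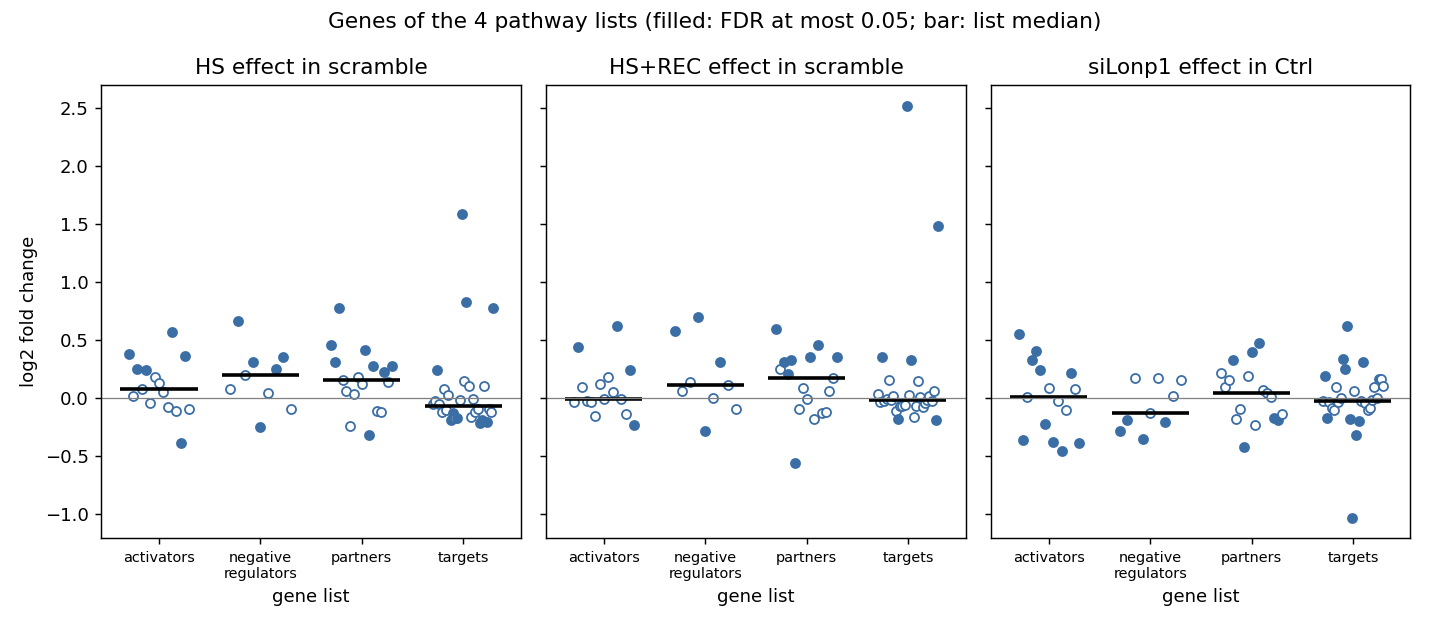
Log2 fold change (vertical axis) of each tested gene of the 4 lists (horizontal axis) for HS with scramble, HS+REC with scramble, and siLonp1 in Ctrl; filled points have an FDR of at most 0.05 and black bars are list medians. Points lie on both sides of 0 in every list, and PDK4, which entered the test through heated groups, is the highest point of the HS+REC panel at 2.52.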

How the data were processed

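Poly(A) RNA libraries were made with a stranded paired-end kit and sequenced on an Illumina NovaSeq. The authors aligned reads to hg38 with STAR 2.7.3a and counted them per UCSC gene with featureCounts, and the deposited values are raw counts per gene. Their strand setting, treatment of multi-mapping reads and annotation release are not given in the sources used here. The methods of the study describe 3 independent biological replicates. From the counts, edgeR 4.0.16 in R 4.3.3 was used with TMM factors, genes above 1 CPM in at least 3 libraries, 1 model with a mean for each of 6 groups, quasi-likelihood tests of 11 contrasts, and Benjamini-Hochberg adjustment over 12832 genes. Genes were called at an FDR of at most 0.05 at any fold; the 2-fold limit in the study's methods was used only as an alternative, as were DESeq2 and other scalings, filters and fits. The quasi-likelihood fit was tested on simulated data for 3 of these contrasts, with an outcome that is not given here. DESeq2 was not tested in that way. Replicates of a group differed by more than counting noise (chi-square per degree of freedom 3.48 to 25.8). The values of 1 marker gene are not reported here. Pathway lists were written by hand. Genes named from them are a selection among the 2 called genes of each list and contrast with the largest change at a mean of at least 1 CPM, and for each member the 3 genes with the highest r. The members and lists were chosen with earlier results of these data known. Promoter windows of 300 bases are from RefSeq (GRCh38.p14), transcript models from GENCODE. Intervals cover counting error only.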

Additional observations from a re-analysis of the deposited data

Results flagged for a closer look

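The response of NRF1 to HS+REC differed between the siRNA arms, with a log2 difference of -0.39 (-0.386, SE 0.086, FDR 0.0204 in edgeR's quasi-likelihood test). NRF1 fell by a log2 value of -0.29 with scramble and -0.68 with siLonp1, in 3 of 3 libraries of each arm below all Ctrl libraries of that arm. The difference missed the threshold when any of 5 libraries was left out.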

How the results depend on the processing

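The members called were counted again under each alternative. A fold change above 2 left 0 for HS with scramble, 1 for HS with siLonp1, 1 and 2 for HS+REC with scramble and siLonp1, 1 and 0 from HS to HS+REC, 0, 0 and 0 for silencing in Ctrl, HS and HS+REC, and 0 for the HS+REC difference between arms, since that limit removes smaller changes. CPM above 1 in all 18 libraries dropped PPARGC1A from the test, leaving 0 for HS with scramble, and called 2 for silencing in HS+REC. That last contrast had 0 with no filter, 0 with only the groups compared in the fit and 2 with DESeq2. Library size only called 1 for silencing in Ctrl. The HS difference between arms had 1 with no filter, 1 with only the groups compared and 1 without HS+REC scramble replicate 1 and HS+REC siLonp1 replicate 3, a pair chosen after seeing the data. Without that pair, HS with scramble had 2 and the HS+REC difference 0. The pair is not part of the HS difference or of HS with scramble, so those added calls came without a change of libraries compared. With each library left out in turn, counts ranged from 1 to 2 for silencing in Ctrl, 0 to 2 for silencing in HS+REC, 0 to 1 for the HS difference and 0 to 1 for the HS+REC difference. Where no cause is named, the cause was not tested. No called log2 fold change of a member changed direction. Values under the threshold that did were PPARGC1A under silencing in HS (-0.029, library size only), ESRRA under silencing in Ctrl (-0.052, library size only), GABPA in HS with siLonp1 (0.003, CPM above 1 in all libraries), and the HS+REC differences of PPARGC1B (0.028) and PPRC1 (-0.015) without the pair. With a library left out, ranges crossing 0 were -0.17 to 0.118 for PPARGC1A from HS to HS+REC with scramble, -0.451 to 0.117 and -0.046 to 0.189 for PPARGC1A under silencing in Ctrl and HS, -0.049 to 0.52 for its HS difference, -0.223 to 0.035 for the PPARGC1B HS+REC difference, -0.066 to 0.269 for PPRC1 under silencing in HS+REC, -0.165 to 0.171 for its HS+REC difference, -0.062 to 0.002 for NRF1 in HS with scramble, -0.074 to 0.004 for ESRRA in HS with siLonp1, -0.02 to 0.068 for ESRRA under silencing in Ctrl, -0.065 to 0.006 for GABPA in HS with siLonp1, and -0.11 to 0.033 for its HS+REC difference.

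With a replicate block, 66 of 66 member values kept direction and side of the threshold, with for example 5 members called for HS+REC with scramble. Pairing of samples by number was not seen, though this check cannot show that it is absent. The 45 pairs of libraries with the same number correlated at a median of -0.0222 (-0.379 to 0.462), 10 of them above 0.1. Of 18 libraries, 6 correlated best with their own number.

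Over all genes, calls with a fold change above 2 numbered 424 of 4615 for HS with scramble, 587 of 5420 with siLonp1, 572 of 5427 and 733 of 6564 for HS+REC, 244 of 3445 and 330 of 4092 from HS to HS+REC, 535 of 6315, 535 of 7026 and 536 of 6938 for silencing, and 18 of 240 and 14 of 203 for the differences between arms. The HS difference had 497 genes with no filter, 735 with only the groups compared, 440 with DESeq2, 379 without the pair and 98 to 526 with a library left out. The HS+REC difference had 385 with no filter, 317 with DESeq2, and 96 to 111 without any of 6 libraries. Library size only moved the share of called genes that were higher from 51.5% to 34.9% and 48.0% to 35.1% in HS+REC, 52.7% to 36.3% from HS to HS+REC with scramble, and 53.4% to 39.2%, 51.3% to 35.0% and 49.6% to 37.4% for silencing.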
